A study of Mus musculus with 13 samples.

Results

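Transcripts of mouse islet progenitors were compared between day 4 and day 1 of differentiation, to see what changed after the first day and which first-day changes were turned back. It sets 5 of the 13 arrays of the study against each other, taken by sample title: 2 arrays of day 4 and 3 arrays of day 1, both of C57BL/6 cells with pancreas as their source. The other arrays were 4 of the same progenitors at day 0, 2 of adult C57BL/6 islets, a positive control, and 2 of embryonic stem cells of the line W9.5, a negative control. All 13 arrays enter the estimate of the spread between arrays on which the p-values rest. The series calls the progenitors purified. The labels used here give no marker, age, number of animals or culture conditions for them, and name no treatment or transgene. No label ties a replicate number to a culture or an animal, so each p-value reflects the scatter between arrays only, which may be technical.

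Islet progenitors are the cells that switch on the transcription factor Neurog3, leave the cell cycle and give rise to the hormone cells of the islet: alpha, beta, delta, PP and epsilon cells. A maturing endocrine cell builds dense-core granules, in which granins and convertases pack hormone, loads the beta cell granule with zinc, and couples glucose metabolism to granule release. Cell division is driven by E2F factors in S phase and by a later set of mitosis genes.

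Values are log2 intensities, on which a step of 1 is a doubling of signal. A value above 7.24 was taken as above background. Of the 16593 gene symbols on the array, 10332 had a probe above that level on at least 2 arrays and were tested, each with its brightest probe. As a check of islet against stem cell labels, all 7 islet hormone genes were above background on every day 4 and day 1 array. None was on the embryonic stem cell arrays. All 7 were also above background on every day 0 and adult islet array, so this does not check the labels of the days. Their mean lay at 13.68 to 13.80 at day 4 and 13.30 to 13.59 at day 1. The 2 day 4 arrays correlated with each other at 0.995, and the 3 day 1 arrays at 0.938 to 0.975. The median SD of a gene was 0.059 at day 4 and 0.167 at day 1.

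Day 1 array 2 and day 0 array 3 stood apart. On both, 60 genes lay more than 1 log2 unit under every other array of the same day, and 0 genes lay that far above on both. Of the 60, 10 encode ribosomal proteins. Rps7, a ribosomal protein of the small subunit, had 13.86 and 13.70 at day 4 and 13.79, 8.16 and 12.45 on day 1 arrays 1, 2 and 3. Only 1 of the 60, Fkbp2, was among the genes called between day 4 and day 1. Within day 1, 101 genes lay more than 1 unit under both companions on array 1, 148 on array 2 and 1 on array 3. On array 1 the globin transcript Hba-a1 stood at 11.21, against 14.69 and 15.00 on day 1 arrays 2 and 3. The cause of these differences was not tested.

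**Figure D1:**
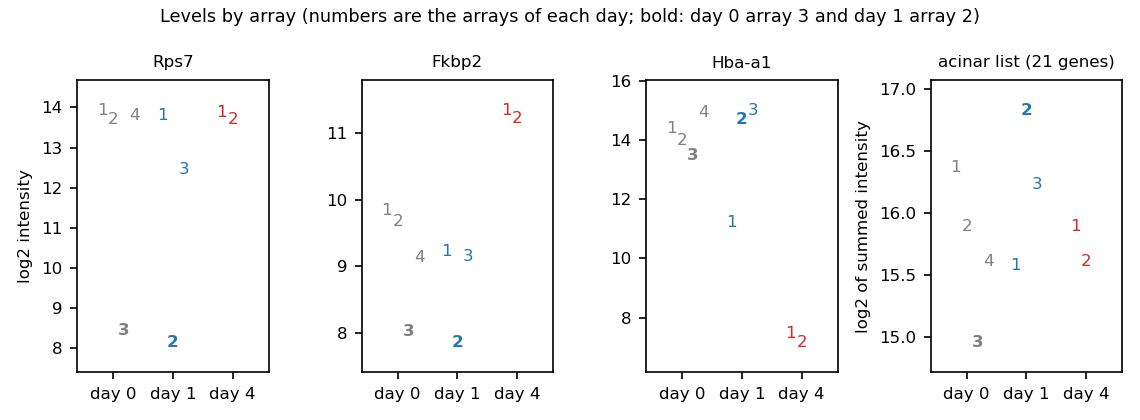
Log2 intensity of Rps7, Fkbp2 and Hba-a1, and log2 of the summed intensity of 21 acinar genes, on each array of day 0, day 1 and day 4 of differentiation. Each digit is the number of an array and bold digits mark day 0 array 3 and day 1 array 2. Rps7 stood at 8.44 and 8.16 on these 2 arrays and between 12.45 and 13.93 on the other 7.

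Between day 4 and day 1, 162 of 10332 genes were called (limma, adjusted p under 0.05), which is 1.57% of those tested. Of these, 104 were higher at day 4 (1.01%) and 58 were lower (0.561%). The change was at least 2-fold for 51 of the higher and 23 of the lower genes. In all 162 the day 4 arrays did not overlap the day 1 arrays, which was so for 42.1% of all genes tested. The number of calls rested on having both day 4 arrays: 8 genes were called without day 4 array 1 and 12 without day 4 array 2. It was 358 without day 1 array 1, 107 without day 1 array 2, 37 without day 1 array 3, and 115 without day 1 array 2 and day 0 array 3 together, of which 89 were among the 162. With the 5 arrays alone in the fit 14 genes were called. Of 57 called genes chosen for naming, 7 and 8 were called without day 4 array 1 and array 2, and 55, 43 and 23 without day 1 array 1, array 2 and array 3. The median difference over all genes was -0.04. Of the 10332 genes tested, 1595 had an unadjusted limma p under 0.05 in either direction, and counts of list genes at that cut are to be read beside this share. Genes called whichever of the 2 day 4 arrays was left out were Bace2, Mdk, Myh8, Resp18, Rgs9, Sv2b and Vstm2l. Because these are bulk samples, fewer cells of a type and less RNA per cell cannot be told apart.

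Hormone transcripts moved in both directions. Pancreatic polypeptide (Ppy), the hormone of PP cells, had 13.53 and 13.09 at day 4, against 10.42, 11.01 and 10.57 at day 1. Both day 4 arrays lay over 2 log2 units above the highest day 1 array, and the difference was 2.65 ± 0.31 (SE, limma adjusted p = 0.00511), a 6.26-fold rise. Neuropeptide Y (Npy), a related peptide of neurons and developing islets, had 13.69 and 13.56 at day 4, against 11.84, 10.95 and 10.40 at day 1. Its arrays did not overlap, and it rose by 2.57 ± 0.35 (adjusted p = 0.0103). Galanin (Gal), a neuropeptide that restrains insulin release, had 10.02 and 9.93 at day 4 and 8.93, 9.09 and 8.78 at day 1, a rise of 1.04 ± 0.15 (adjusted p = 0.0104). None of the 3 genes was called in the first day.

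Ghrelin and gastrin went the other way. Ghrelin (Ghrl), the hormone of epsilon cells, had 12.73 and 12.14 at day 4, against 13.88, 14.14 and 13.69 at day 1. The higher of the day 4 arrays was about 1 unit under the lowest day 1 array, and Ghrl fell by 1.47 (SE 0.21, adjusted p = 0.0104). Gastrin (Gast), made by the fetal pancreas and the stomach, had 9.32 and 8.93 at day 4, against 10.39, 11.41 and 11.11 at day 1, and fell by 1.85 (SE 0.37, adjusted p = 0.0375). Adult islets had a mean of 14.67 for Ppy and 8.06 for Ghrl, and Gast was above background on neither of their arrays.

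The major hormones did not pass the test. Insulin 2 (Ins2) had 14.69 and 14.68 at day 4, against 14.29, 14.76 and 14.91 at day 1, and these arrays overlap. Glucagon (Gcg) had 14.61 and 14.75 at day 4, against 14.59, 14.75 and 14.94 at day 1. Somatostatin (Sst) differed by 0.18 ± 0.14 (adjusted p = 0.569) and amylin (Iapp) by 0.85 ± 0.37 (adjusted p = 0.302). On the day 4 and day 1 arrays Ins2, Gcg and Sst lay at most 0.802 log2 units under the brightest probe, where differences can be compressed, and Iapp lay at least 2.68 units under it. In all, 1 of 7 islet hormone genes rose and 1 fell (median difference 0.03), and 2 of 17 gut hormone and neuropeptide genes rose and 1 fell (median 0.01), beside the median of -0.04 over all genes. Cholecystokinin (Cck, -1.11, adjusted p = 0.0619) and the peptide precursor Cartpt (-1.14, adjusted p = 0.0525) missed the threshold. Without the 2 arrays that stood apart, Cartpt differed by -1.28 and passed it (adjusted p = 0.00418).

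**Figure D2:**
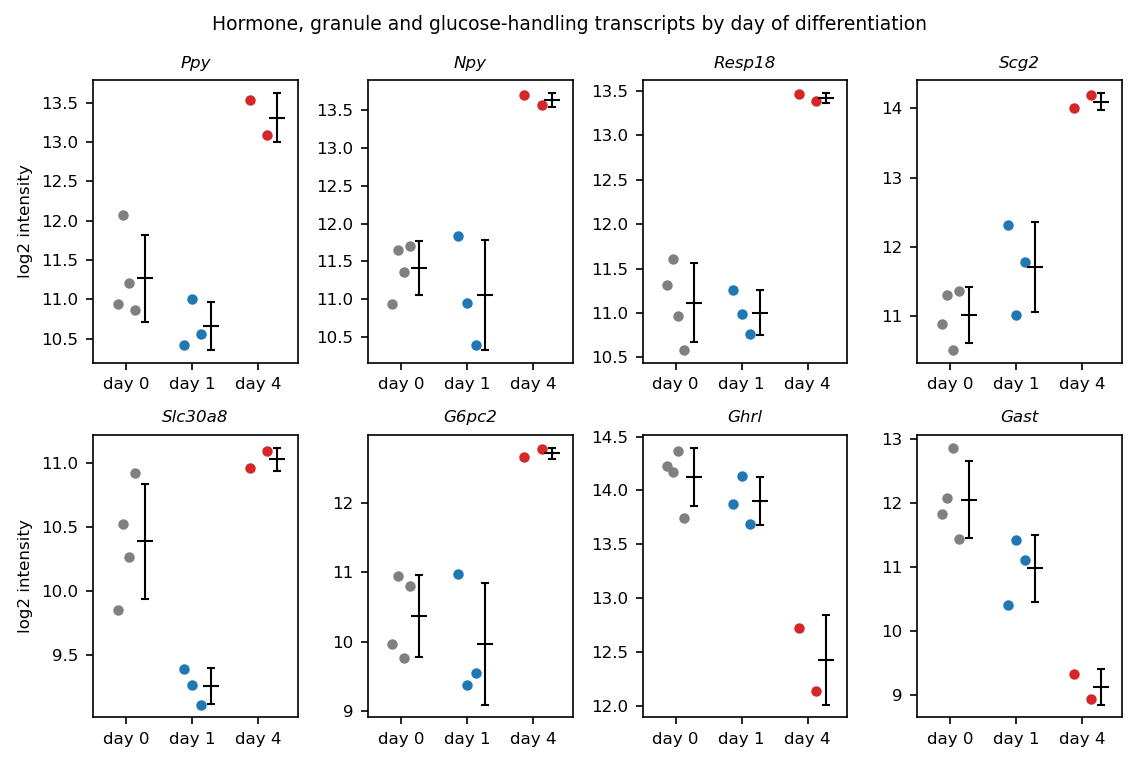
Log2 intensity of 8 hormone, granule and glucose-handling genes at day 0, day 1 and day 4 of differentiation. Points are arrays (4, 3 and 2), and the bar beside them is the mean with its SD. The day 4 arrays of Ppy, Npy, Resp18, Scg2 and G6pc2 lie above all arrays of the earlier days, those of Ghrl and Gast lie under them, and the 3 day 1 arrays of Slc30a8 are its lowest.

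Of 14 granule genes, 3 rose and 0 fell, with a median difference of 0.46. Without either day 4 array 1 of them was called, and without day 1 array 1 the list had 5 rises. Resp18, an endocrine-specific protein of the granule and its precursors, had 13.46 and 13.38 at day 4, against 11.26, 10.99 and 10.76 at day 1, a rise of 2.42 ± 0.25 (adjusted p = 0.00166). Secretogranin 2 (Scg2), a granin that helps form the granule, had 14.01 and 14.19 at day 4, against 12.32, 11.03 and 11.78 at day 1, a rise of 2.39 ± 0.33 (adjusted p = 0.0104). Resp18 arrays lay close together within each day, while the day 1 arrays of Scg2 spread over more than 1 unit, and neither gene was called in the first day.

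The zinc transporter Slc30a8, which fills the insulin granule with zinc, had 9.85, 10.52, 10.26 and 10.92 at day 0, 9.39, 9.26 and 9.11 at day 1, and 10.96 and 11.09 at day 4. The day 1 arrays lay under all others. It fell by 1.13 in the first day (adjusted p = 0.0115) and rose by 1.77 ± 0.24 afterwards (adjusted p = 0.0103), and day 4 differed from day 0 by 0.64 (adjusted p = 0.0997). Chromogranin A (Chga) differed by 1.10 ± 0.28 (adjusted p = 0.0886) and chromogranin B (Chgb) by -0.23 ± 0.28 (adjusted p = 0.758), and neither was called.

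Of 22 exocytosis genes, 2 rose and 0 fell (median difference 0.20). They were Rab3b, a small GTPase of secretory vesicles, at 8.65 and 8.44 at day 4 and 7.59, 7.51 and 7.28 at day 1 (1.09 ± 0.16, adjusted p = 0.0110), and the vesicle synaptotagmin Syt4, at 8.89 and 8.81 at day 4 and 7.85, 8.03 and 7.73 at day 1 (0.98 ± 0.14, adjusted p = 0.0104). Sv2b, a synaptic vesicle glycoprotein outside that list and picked after its values were seen, had 8.86 and 8.84 at day 4, against 7.65, 7.57 and 7.51 at day 1 (1.27 ± 0.13, adjusted p = 0.00161).

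Genes of glucose sensing and beta cell maturity rose in 4 of 25 cases and fell in 0 (median difference 0.32). They rose in 1 case without either day 4 array and in 2 without day 1 array 3. G6pc2, an islet glucose-6-phosphatase, had 12.66 and 12.77 at day 4, against 10.97, 9.38 and 9.55 at day 1. Its rise of 2.75 ± 0.46 (adjusted p = 0.0165) was the largest rise among the called genes, and day 1 array 1 lay more than 1 unit above its companions. Without that array the rise was 3.25 (adjusted p = 0.00203), and without day 1 array 3 the gene was not called. Bace2, a protease of the beta cell surface, had 11.39 and 11.41 at day 4, against 9.25, 9.20 and 8.83 at day 1, and rose by 2.31 ± 0.18 (adjusted p = 0.000788). It had already risen by 0.71 in the first day (adjusted p = 0.0263). Slc30a8 and the tetraspanin Tspan8 were the other genes of this list to rise. The glucose transporter Slc2a2 had 10.49 and 10.77 at day 4, against 9.38, 9.49 and 8.81 at day 1, and missed the threshold (1.41 ± 0.34, adjusted p = 0.0718).

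Urocortin 3 (Ucn3), a peptide of mature beta cells, had 7.46 and 7.38 at day 4 and was above background on none of the day 1 arrays, with a mean of 12.06 in adult islets. Mafa, a factor of mature beta cells, had 7.44 and 7.66 at day 4, against 7.58, 7.22 and 7.00 at day 1 (adjusted p = 0.442). Of 19 islet transcription factors, 0 were called with limma (median difference -0.13). At an unadjusted p under 0.05, 1 was higher and 3 were lower, beside 1595 of all 10332 genes in either direction. Pdx1 differed by -0.39 (adjusted p = 0.476), Nkx6-1 by -0.51 (adjusted p = 0.417) and Neurod1 by -0.46 (adjusted p = 0.681).

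Cell division genes were examined in 2 lists. Of 40 mitosis genes, 8 rose and 0 fell, with a median difference of 0.60 and 38 positive differences. Of 40 DNA replication genes, 6 rose and 0 fell, with a median of 0.64 and 40 positive differences. Over all genes, 43.5% of the differences were positive. Of the mitosis genes, 35 were above background on each day 4 array, and 21, 31 and 28 on day 1 arrays 1, 2 and 3. For replication these counts were 38 and 39 at day 4, and 32, 36 and 36 at day 1. Where day 1 values lay at background, the sizes of the differences are uncertain. In the first day the same lists had medians of -0.32 and -0.21, with 0 called higher in either, and 0 and 1 called lower. Summed mitosis intensity (log2) was 13.40 to 14.01 at day 0, 12.90 to 13.44 at day 1 and 14.17 to 14.20 at day 4. It was 15.93 to 15.99 in embryonic stem cells and 12.87 to 13.11 in adult islets. Day 4 minus day 0 had smaller medians of 0.26 for mitosis and 0.41 for replication, with 7 and 9 genes called higher and 0 lower. The later and the first-day differences share the day 1 arrays, whose scatter pushes them to opposite signs. How much of the later rise made up for lower values at day 1 was not tested. Without day 1 array 2 and day 0 array 3, 15 mitosis and 9 replication genes were called higher and 0 lower. Without either day 4 array 0 of either list were called, with medians of 0.58 to 0.64, and without day 1 array 1 the medians were 0.46 and 0.55 and 7 and 5 genes were called higher.

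Pbk, a mitotic kinase, had 10.35 and 10.38 at day 4, against 7.24, 8.30 and 7.88 at day 1, and rose by 2.56 ± 0.37 (adjusted p = 0.0104). DNA topoisomerase 2 alpha (Top2a), which untangles chromosomes, had 9.03 and 9.19 at day 4, against 7.32, 7.56 and 7.27 at day 1, and rose by 1.73 ± 0.26 (adjusted p = 0.0110). Every day 1 array of both genes lay at least 1 unit under every day 4 array. Top2a on day 1 arrays 1 and 3 and Pbk on day 1 array 1 lay near the background level of 7.24. The sizes of these 2 rises are therefore uncertain. Prc1, which bundles microtubules of the central spindle, had 10.40 and 10.48 at day 4, against 8.51, 9.27 and 9.12 at day 1 (1.47 ± 0.27, adjusted p = 0.0265). Cdca3, which helps the cell enter mitosis, had 9.95 and 9.82 at day 4, against 7.91, 8.87 and 8.19 at day 1 (1.56 ± 0.31, adjusted p = 0.0366). The other 4 risers of the list were the kinetochore genes Spc25 and Ndc80, the spindle checkpoint gene Mad2l1 and the spindle gene Dlgap5, with rises of 0.68 to 1.37. Day 1 array 1 was the lowest of day 1 for Pbk, Prc1 and Cdca3. Against day 0, Pbk (1.63, limma adjusted p = 0.0157) and Top2a (1.30, adjusted p = 0.00742) were called higher at day 4. Prc1 (0.86, adjusted p = 0.0556) and Cdca3 (0.60, adjusted p = 0.223) were not.

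Among the replication genes, E2f1, the transcription factor of S phase entry, had 10.12 and 10.09 at day 4, against 8.38, 8.98 and 8.60 at day 1, and rose by 1.45 ± 0.18 (adjusted p = 0.00612). Mcm10, which helps start replication forks, rose by 1.36 ± 0.21 (adjusted p = 0.0131), and Clspn, a checkpoint adaptor at the fork, by 1.35 ± 0.19 (adjusted p = 0.0104). Cdc45, a part of the replicative helicase, rose by 1.09 ± 0.17 (adjusted p = 0.0128). For each of these 4 genes the lowest day 1 array was array 1. Mcm2, a subunit of the same helicase, had 9.15 and 9.20 at day 4, against 8.40, 8.13 and 8.33 at day 1 (0.88 ± 0.15, adjusted p = 0.0176). Rrm2, a subunit of the enzyme that makes deoxynucleotides, rose by 0.85 ± 0.17 (adjusted p = 0.0375).

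At an unadjusted limma p under 0.05, 27 of the 40 genes of each list were higher and 0 lower, beside 1595 of all 10332 genes in either direction. Among those that missed the adjusted threshold were the kinase Cdk1 (1.47, adjusted p = 0.0629), the centromeric histone Cenpa (1.86, adjusted p = 0.0718) and the helicase subunit Mcm5 (1.54, adjusted p = 0.0644). The replication clamp Pcna had 7.77 and 7.90 at day 4, against 7.57, 7.80 and 7.49 at day 1, and these arrays overlap. Of 17 cyclin-dependent kinase inhibitors, D cyclins and other cell cycle regulators, 1 rose and 0 fell. The riser was Cdkn2c, an inhibitor of the kinases Cdk4 and Cdk6, at 7.96 and 7.87 at day 4 and 7.36, 7.40 and 7.26 at day 1 (0.57 ± 0.11, adjusted p = 0.0270, and 0.0564 without day 1 array 2 and day 0 array 3). Cyclin D1 (Ccnd1) had 10.37 and 10.02 at day 4, against 8.32, 8.72 and 8.77 at day 1 (1.59 ± 0.38, adjusted p = 0.0699).

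**Figure D3:**
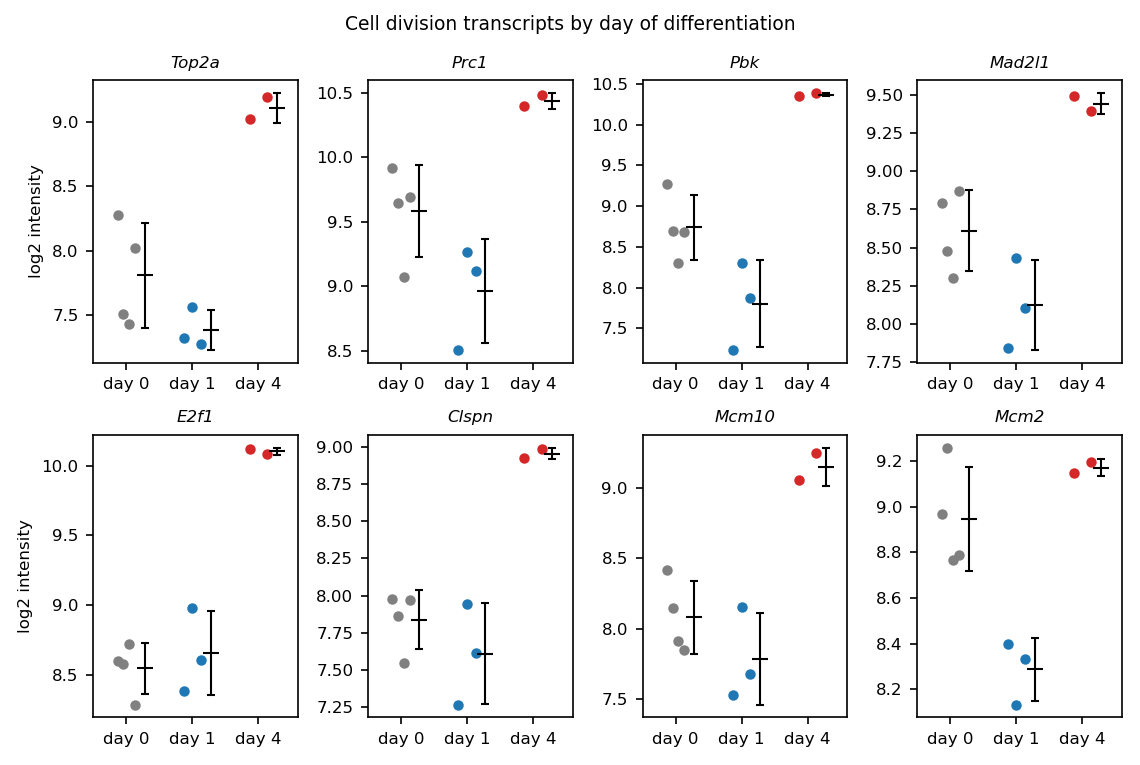
Log2 intensity of 8 cell division genes at day 0, day 1 and day 4 of differentiation. Points are arrays (4, 3 and 2), and the bar beside them is the mean with its SD. In every panel both day 4 arrays lie above all 3 day 1 arrays. The genes shown were all called, and none of the 162 called genes had overlapping arrays. Of all genes tested, 17.3% were higher at day 4 without overlap.

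Promoter sequences of these genes hold short elements known from cell cycle control: CCAAT, the letters bound by the factor NF-Y, and TTTGAA, the core of the cell cycle homology region, or CHR, through which the DREAM complex holds mitosis genes silent in resting cells. The stretches shown run from 140 bases before to 10 bases at and after the annotated start (RefSeq, GRCm38.p6), 5′ to 3′ on the strand of the gene, for 4 mitosis genes that rose, for Kif15, a mitotic kinesin, and for Mcm2. Capitals mark CCAAT and TTTGAA on either strand, so that ATTGG and TTCAAA are the same elements read from the other strand. They lie at chr11:99024180-99024329 (minus strand) for Top2a, chr7:80294311-80294460 (plus strand) for Prc1, chr6:124830036-124830185 (plus strand) for Cdca3, chr2:69206204-69206353 (minus strand) for Spc25, chr9:122950941-122951090 (plus strand) for Kif15 and chr6:88898771-88898920 (minus strand) for Mcm2.
Top2a: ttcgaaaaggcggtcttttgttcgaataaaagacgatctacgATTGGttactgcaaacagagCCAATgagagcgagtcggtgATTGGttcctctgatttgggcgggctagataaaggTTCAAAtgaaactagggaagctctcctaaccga
Prc1: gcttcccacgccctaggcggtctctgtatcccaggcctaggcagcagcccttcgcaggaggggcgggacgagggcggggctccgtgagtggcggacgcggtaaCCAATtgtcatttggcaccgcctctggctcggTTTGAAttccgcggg
Cdca3: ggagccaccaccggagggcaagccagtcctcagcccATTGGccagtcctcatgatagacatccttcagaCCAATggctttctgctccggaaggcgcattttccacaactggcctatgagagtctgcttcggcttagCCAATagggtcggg
Spc25: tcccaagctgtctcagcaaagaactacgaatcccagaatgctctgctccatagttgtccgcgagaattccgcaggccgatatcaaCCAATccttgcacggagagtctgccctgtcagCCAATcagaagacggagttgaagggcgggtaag
Kif15: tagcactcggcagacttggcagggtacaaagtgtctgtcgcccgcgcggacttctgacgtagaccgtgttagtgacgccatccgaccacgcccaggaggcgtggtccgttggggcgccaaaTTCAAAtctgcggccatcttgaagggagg
Mcm2: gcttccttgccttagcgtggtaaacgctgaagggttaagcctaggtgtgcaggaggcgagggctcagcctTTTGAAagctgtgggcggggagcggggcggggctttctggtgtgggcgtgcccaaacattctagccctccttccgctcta

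Positions are counted from the start, with minus signs before it, and give the first base of an element. In the stretch of Top2a, CCAAT elements lie at -98, -78 and -58 and TTTGAA at -23. Prc1 has a CCAAT at -37 and a TTTGAA at -5. In Cdca3 and Spc25 the TTTGAA element lies past the stretch shown, at 30 and 24. Over windows of 250 bases before to 50 after the start, TTTGAA was found in 25 of 31 mitosis promoters (80.7%), beside 18.1% of all 27025 promoters and 11.8% of the 8376 found for genes tested. CCAAT was found in 67.7% of the mitosis promoters, 37.9% of all and 38.8% of those of genes tested. Both were found in 21 of 31 mitosis promoters (67.7%), 7.12% of all and 4.98% of those of genes tested. Of 35 DNA replication promoters, 57.1% held CCAAT and 11.4% held TTTGAA. These shares are those of whole lists, called or not. Of 12 promoters of mitosis or replication genes called higher, 58.3% held TTTGAA and 50% held both elements. Of 81 promoters of all genes called higher, 16.05% held TTTGAA and 8.64% both. Of the 69 promoters of genes called higher outside both lists, 1.45% held both elements. A match of letters is a description of the window and was not tested as a site.

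A further promoter is shown for Scg2, because 4 of 12 granule gene promoters (33.3%) hold TGACGTCA, the cyclic AMP response element, beside 1.88% of all promoters and 3.16% of those found for genes tested. That motif was picked after the values were seen. The share is that of the whole list, of which 3 of 14 genes were called. Of 81 promoters of all genes called higher, 4.94% held it, and of 15 exocytosis promoters 6.67%. The stretch lies at chr1:79440017-79440166 (minus strand), and capitals mark a TGACGTCA at -68 and a TTTGAA at -110.
Scg2: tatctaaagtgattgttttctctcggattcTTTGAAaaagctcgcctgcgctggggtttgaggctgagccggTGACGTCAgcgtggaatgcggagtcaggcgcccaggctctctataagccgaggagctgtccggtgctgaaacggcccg

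The 162 genes were sorted by what they had done in the first day, in which 449 of the 10332 genes were called (4.35%), 207 higher (2%) and 242 lower (2.34%) at day 1 than at day 0. Both comparisons use the day 1 arrays, so their values are set side by side, and day 4 minus day 0, in which 1188 genes were called (11.5%, with 5.41% higher and 6.09% lower), is given as well. A gene was said to change after the first day if it was not called in the first day and its later change differed from its first-day change by a direct test, which called 103 genes (0.997%, with 0.532% higher and 0.465% lower). This held for 32 genes, 26 higher and 6 lower at day 4. Of the 32, 26 were also called between day 4 and day 0. In 15 genes the later change reversed a called first-day change, and in 15 it continued one. The other 100 genes, 66 higher and 34 lower at day 4, were called between day 4 and day 1 without meeting these conditions. Scg2, G6pc2, E2f1 and Gal, not called in the first day, are among them. The direct test uses the day 1 arrays in both of its differences, so it favours genes whose first-day change ran the opposite way. The class counts rested on single arrays: without day 1 array 3, 2 genes were reversed and 1 changed after the first day, and without either day 4 array 0 were reversed.

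**Figure D4:**
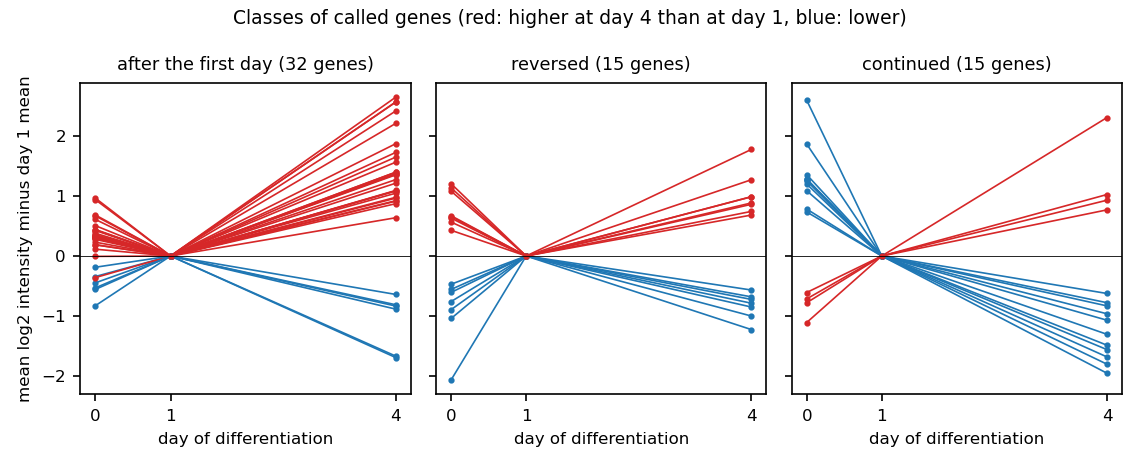
Mean log2 intensity minus the day 1 mean, at day 0, 1 and 4 of differentiation, for 32 genes that changed after the first day, 15 whose first-day change was reversed and 15 whose change continued. Each line is 1 gene, red if higher and blue if lower at day 4 than at day 1. The classes were defined by these differences, so the shapes describe the rule.

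Of the 26 risers in the class that changed after the first day, 7 belong to the division lists (Cdc45, Cdca3, Clspn, Mcm10, Pbk, Spc25 and Top2a). Ppy, Npy, Resp18 and Rab3b belong to the hormone, neuropeptide, granule and exocytosis lists. Of all 104 genes called higher, 14 were division genes, from 2 lists with 40 tested genes each out of 10332. Another 6 of these lay among the 66 risers in no class, and Mcm2 was in the reversed class. Vstm2l, a small secreted protein, had 11.51 and 11.47 at day 4, against 9.46, 9.37 and 9.01 at day 1 (2.21 ± 0.22, adjusted p = 0.00161). Rgs9, a regulator that shortens G protein signals, had 10.50 and 10.20 at day 4, against 8.78, 8.69 and 8.63 at day 1 (1.65 ± 0.15, adjusted p = 0.00117). Myh8, the perinatal myosin heavy chain of skeletal muscle, had 9.56 and 8.62 at day 4, and 7.09, 7.23 and 7.34 at day 1, where 1 of the 3 arrays was above background (1.87 ± 0.21, adjusted p = 0.00337). Its day 1 mean of 7.22 lay under the background level, so the size of the rise is uncertain. The 2 day 4 arrays of Myh8 differed by nearly 1 unit, more than those of the other genes named here.

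The 6 genes that fell after the first day include hexokinase 2 (Hk2), the hexokinase of muscle and dividing cells that mature beta cells repress. It had 7.65 and 7.44 at day 4, against 8.68, 9.68 and 9.35 at day 1, and fell by 1.69 (SE 0.32, adjusted p = 0.0270). Its first-day difference was 0.83 (adjusted p = 0.117), and day 4 minus day 0 was -0.86 (adjusted p = 0.0887). The neuronal tubulin Tubb2b had 10.30 and 10.53 at day 4, against 11.71, 12.16 and 12.38 at day 1, and fell by 1.67 (SE 0.26, adjusted p = 0.0144). Of its 5 probes, 1 moved the other way. Tubulin beta 4A (Tubb4a, -0.88), the signalling scaffold Card10 (-0.83), the neuronal membrane protein Ctxn1 (-0.81) and the mitochondrial glycine carrier Slc25a38 (-0.64) fell by less.

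Of 22 genes of glycolysis and of those repressed in beta cells, 0 rose and 1, Hk2, fell (without day 1 array 2 and day 0 array 3 its adjusted p was 0.0510). Of 41 genes of the citric acid cycle and respiration 0 were called with limma (median -0.03). At an unadjusted p under 0.05, 3 were higher and 2 lower, beside 1595 of all 10332 genes in either direction. Lactate dehydrogenase A (Ldha), which beta cells also repress, had 8.06 and 8.04 at day 4, against 8.21, 11.27 and 10.25 at day 1. Its difference of -1.86 was not called (adjusted p = 0.207). Day 1 array 1 lay near the day 4 arrays, and without it the difference was -2.71 and passed the threshold (adjusted p = 0.00798).

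In the reversed class 8 genes rose after a first-day fall and 7 fell after a first-day rise. Their day 4 minus day 0 differences lay between -0.32 and 0.84, and 1 of the 15, Actc1, was called there. Slc30a8 was the largest of the risers. Upp1, a uridine phosphorylase, had 10.86, 10.67, 10.76 and 10.75 at day 0, 9.68, 9.40 and 9.58 at day 1, and 10.61 and 10.47 at day 4. It fell by 1.20 in the first day and rose by 0.99 ± 0.16 afterwards (adjusted p = 0.0148). Fkbp11, a prolyl isomerase of secretory cells, had 10.86, 10.73, 10.23 and 10.79 at day 0, 9.81, 10.22 and 9.92 at day 1, and 10.95 and 10.99 at day 4. Day 0 array 3 lay beside the day 1 arrays, and Fkbp11 rose by 0.99 ± 0.18 after the first day (adjusted p = 0.0248).

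The other risers were Mns1, a protein of cilia and sperm tails (-1.08 in the first day, 1.27 afterwards), Mcm2 (-0.66 and 0.88), Kif15 (-0.56 and 0.86), the kinetochore gene Cenpk (-0.43 and 0.74) and the complement inhibitor Cd59a (-0.63 and 0.68). Of the 3 day 1 arrays, 1 was above background for Kif15 and 2 for Cenpk.

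Cardiac actin (Actc1) led the genes whose first-day rise was turned back. It was above background on 1 of 4 arrays at day 0, had 8.66, 9.76 and 9.41 at day 1, and 8.02 and 8.09 at day 4. It rose by 2.06 in the first day and fell by 1.23 afterwards (SE 0.25, adjusted p = 0.0393, and 0.0660 without day 1 array 2 and day 0 array 3). Acetyl-CoA carboxylase (Acaca), which makes the building block of fatty acids, had 9.94, 9.58, 9.80 and 9.85 at day 0, 10.85, 10.99 and 10.66 at day 1, and 10.20 and 10.11 at day 4. It rose by 1.04 in the first day and fell by 0.68 afterwards (SE 0.15, adjusted p = 0.0497), a call that held in 4 of 22 alternative analyses. The acetylcholine receptor subunit Chrnb1 rose by 0.89 and then fell by 1.00 (SE 0.13, adjusted p = 0.00749). Spast, a microtubule-severing enzyme (-0.85, with 1 of 3 probes opposite), the nucleotidase Entpd5 (-0.79), the adenylyl cyclase Adcy2 (-0.72) and the kinesin Kif3c (-0.57) made up the rest.

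Of the 449 first-day calls, 3.34% were followed by a call in the opposite direction and 3.34% by one in the same direction. Of the 207 genes that had risen, 7 reversed, 4 continued and 196 were not called between day 4 and day 1. Of the 242 that had fallen, 8 reversed, 11 continued and 223 were not called. Over all genes tested, 0.561% were called lower and 1.01% higher between day 4 and day 1. Both differences use the day 1 arrays, whose scatter pushes them to opposite signs. Of 18 cholesterol synthesis genes, 10 rose in the first day (median 0.97) and 0 were called with limma between day 4 and day 1 (median -0.34, and -0.15 without day 1 array 2 and day 0 array 3), where 6 lower and 0 higher had an unadjusted p under 0.05. At day 4 the differences from day 0 were positive for 18 of the 18, and 7 were called higher. Hmgcs1, which makes the precursor of mevalonate, had 11.92, 11.93, 11.79 and 11.95 at day 0, 13.96, 14.39 and 13.83 at day 1, and 13.52 and 13.48 at day 4. It differed by -0.56 from day 1 (adjusted p = 0.313) and rose by 1.60 from day 0 (adjusted p = 0.00232). Of 13 fatty acid synthesis genes, 8 rose in the first day, and 0 rose and 1, Acaca, fell afterwards (median -0.17, and -0.10 without day 1 array 2 and day 0 array 3, where the adjusted p of Acaca was 0.135), while day 4 minus day 0 was positive for 13 of the 13 and called higher for 8.

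In the amino acid response list, 15 of 28 genes rose in the first day (median 1.04). Afterwards 0 were called with limma (median -0.15), 1 higher and 10 lower had an unadjusted p under 0.05, while day 4 minus day 0 was positive for 21 and called higher for 12. Chac1, an enzyme that degrades glutathione, had 7.79, 8.14, 8.30 and 7.85 at day 0, 11.73, 12.03 and 11.71 at day 1, and 10.87 and 11.10 at day 4. Its days did not overlap, and its difference of -0.84 between day 4 and day 1 was not called (adjusted p = 0.0740). Acta1, skeletal muscle actin, had 7.25, 7.47, 7.66 and 7.42 at day 0, 11.11, 11.79 and 11.83 at day 1, and 10.62 and 11.03 at day 4, a later difference of -0.75 (adjusted p = 0.123).

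Immediate early and heat shock genes, of which 8 of 24 fell in the first day, gave 0 calls with limma afterwards (median -0.26), and 1 higher and 3 lower had an unadjusted p under 0.05. The transcription factor Fos had 11.68, 11.83, 12.33 and 12.44 at day 0, 8.12, 8.22 and 8.64 at day 1, and 8.16 and 7.76 at day 4. Of 19 endoplasmic reticulum chaperone genes 0 were called with limma, 4 higher and 0 lower had an unadjusted p under 0.05, and the median of 0.32 was 0.14 without day 1 array 2 and day 0 array 3. Of 20 Notch pathway and Id genes and 19 transfer RNA synthetase genes 0 were called (medians -0.15 and -0.09), with 1 higher and 3 lower, and 0 higher and 2 lower, at an unadjusted p under 0.05.

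**Figure D5:**
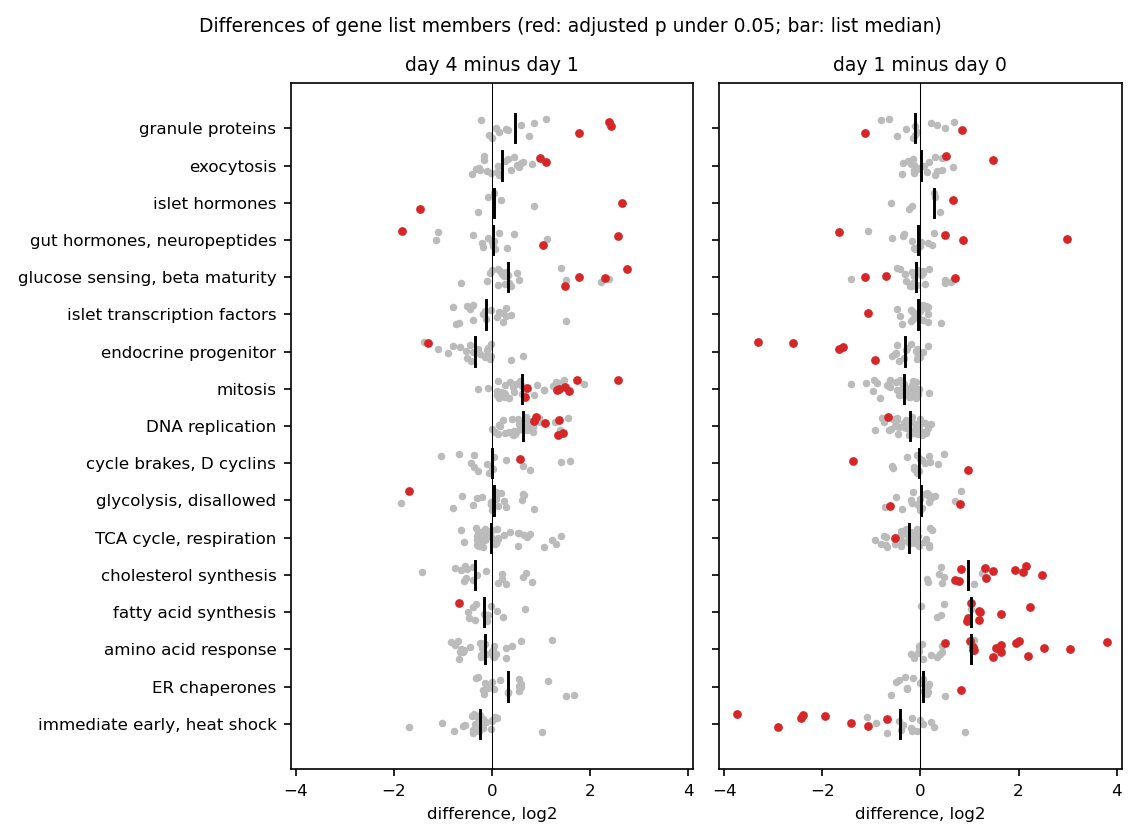
Log2 differences of the members of 17 gene lists, day 4 minus day 1 on the left and day 1 minus day 0 on the right. Each point is a gene, red if called (limma adjusted p under 0.05), and the bar is the list's median. Mitosis and DNA replication members lie to the right after the first day (medians 0.60 and 0.64), and sterol, fatty acid and amino acid response members lie to the right in the first day (medians 0.97, 1.03 and 1.04). Both panels use the day 1 arrays.

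Among changes that continued, the growth factor midkine (Mdk) had 13.61, 13.30, 13.03 and 13.09 at day 0, 11.43, 11.34 and 11.41 at day 1, and 9.69 and 9.20 at day 4. The arrays of the 3 days did not overlap. Mdk fell by 1.86 in the first day and by 1.95 afterwards (SE 0.20, adjusted p = 0.00161). Of its 4 probes, 1 moved the other way after the first day. Pax4, a factor that steers progenitors to the beta and delta fates, was above background on neither day 4 array and had 8.93, 8.07 and 8.03 at day 1. It was at least 2.14-fold lower at day 4 (adjusted p = 0.0229), a bound against the background level, after it fell by 2.59 in the first day. Pax4 and Sulf1, a sulfatase that trims heparan sulfate, were the only called genes above background on all 3 day 1 arrays and neither day 4 array. Sulf1 was picked for this after its values were seen and was at least 1.59-fold lower (limma adjusted p = 0.0393).

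Neurog3 had 8.97 and 8.55 at day 4, against 11.60, 9.48 and 9.34 at day 1, and its difference of -1.38 was not called (adjusted p = 0.255), with day 1 array 1 over 2 units above its companions. Without that array the difference was -0.65 (adjusted p = 0.213). Of 22 endocrine progenitor genes, 0 rose and 1, Pax4, fell (median -0.34), and 2 of the differences were positive, beside 43.5% over all genes. At an unadjusted limma p under 0.05, 1 was higher and 8 were lower, beside 1595 of all 10332 genes in either direction. In the first day 5 of the 22 were called lower, Neurog3 among them (-3.30, limma adjusted p = 0.00257), and 0 higher. Between day 4 and day 0, 9 were called lower and 0 higher. The serpin genes Serpina1b, Serpina1c and Serpina1d, alpha-1 antitrypsins, fell by 1.80, 1.56 and 1.68 after first-day changes of -1.20, -1.28 and -1.28. They are near-identical copies whose probes may read each other, so they cannot be counted as separate genes.

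Further genes among the 10 largest rises and falls were in no class. Fkbp2, a prolyl isomerase of the endoplasmic reticulum, had 11.34 and 11.22 at day 4, against 9.22, 7.86 and 9.15 at day 1, and rose by 2.54 ± 0.52 (adjusted p = 0.0380). Day 1 array 2 was the lowest of all, and without it and day 0 array 3 the rise was 2.10 (adjusted p = 0.00830). Syne1, a nuclear envelope protein, had 8.08 and 7.93 at day 4, against 9.42, 9.86 and 9.85 at day 1, and fell by 1.71 (SE 0.22, adjusted p = 0.00749). Pcyt1b, an enzyme of phosphatidylcholine synthesis, had 9.18 and 9.25 at day 4, against 10.93, 10.75 and 10.63 at day 1, and fell by 1.56 (SE 0.26, adjusted p = 0.0178). Outside those 20, the imprinted adaptor Grb10, which dampens insulin and growth factor receptors, had 12.29 and 12.46 at day 4, against 13.35, 13.10 and 13.23 at day 1, and fell by 0.85 (SE 0.15, adjusted p = 0.0218). Grb10 and Mdk were the 2 of 19 growth factor and imprinted genes that fell, and 0 rose. The median of that list was 0.16, and -0.07 without day 1 array 2 and day 0 array 3.

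Among markers of other cell types, globin stood out. Hba-a1, alpha globin of red cells, had 7.45 and 7.17 at day 4, where 1 of 2 arrays was above background, against 11.21, 14.69 and 15.00 at day 1. It fell by 6.32 (SE 0.90, adjusted p = 0.0104), the largest fall among the called genes, and by 7.53 without day 1 array 1. Of 7 erythroid genes 0 rose and only Hba-a1 fell, and their summed intensity was 11.89 to 12.00 at day 4 and 12.07 to 15.12 at day 1 (log2). The 21 acinar genes had sums of 15.61 to 15.89 at day 4, within the 15.58 to 16.83 at day 1, with 20 and 19 to 21 of them above background. The acinar list had a median difference of -0.34, with 6 of its 21 genes positive. At an unadjusted p under 0.05, 6 of its genes were lower and 1 higher, and the most negative differences were those of the digestive enzymes Cpa1 (-2.05, adjusted p = 0.0886), Cel (-1.94, adjusted p = 0.188) and Cela1 (-1.63, adjusted p = 0.253). The gene called was Gp2, a zymogen granule protein (8.82 and 8.28 at day 4, 7.07, 7.44 and 7.15 at day 1, adjusted p = 0.0104).

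Ductal sums were 14.52 to 14.57 at day 4 and 14.62 to 15.19 at day 1, with Tspan8 higher at day 4 (9.66 and 9.15, against 7.44, 8.29 and 8.03 at day 1). The ductal median was -0.39, with 3 of 12 differences positive, and 3 lower and 1 higher at an unadjusted p under 0.05. Mesenchyme sums were 13.27 to 13.85 at day 4 and 11.88 to 14.65 at day 1, and endothelial sums 11.47 to 11.61 at day 4 and 11.23 to 11.47 at day 1. Immune sums were 11.37 to 11.40 at day 4 and 11.20 to 11.71 at day 1. Of 17 immune genes only the complement gene C1qa was called (8.36 and 8.31 at day 4, 7.50, 7.32 and 7.25 at day 1, adjusted p = 0.00855). C1qb, its partner in the same complex, was above background on none of these 5 arrays. Of 17 mesenchyme, 12 endothelial and 6 neural markers 0 were called with limma, and 1 endothelial marker was higher at an unadjusted p under 0.05. The mesenchyme median was -0.10, and 0.32 without day 1 array 2 and day 0 array 3. The part of these cell types in the results was not tested.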

How the data were processed

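RNA was taken up in Trizol and hybridised as biotin-labelled cRNA, per the labels' protocols. The authors deposited log2 intensities, already normalized between arrays by a method not given in the sources used here. Base 2 was inferred from their range. They were used as deposited. Another 26 columns of 13 arrays, whose names match no sample label, were not used. Of 25697 probes, 23978 name 1 gene, and of these 13980 exceeded 7.24 (the mode of all values, 6.98, plus 5 SDs of the values below it) on at least 2 arrays. The probe with the highest mean was kept for each gene.

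A model of 5 group means over all 13 arrays was fitted with limma 3.58.1 (lmFit, eBayes, Benjamini-Hochberg), with 8 residual degrees of freedom. Errors are SEs of that fit. In data simulated for day 4 minus day 1 over 10332 genes it recovered 72% of 2-fold and 92% of 4-fold changes, with 2.96% false calls. The simulated noise was normal, independent between genes and arrays, and had 1 SD per gene in all groups. The real arrays differ from that, with a median SD of 0.059 at day 4 and 0.167 at day 1 and with arrays that stood apart. The simulated rates are therefore no estimate of the false calls among the 162 genes. The number of arrays limits the precision.

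Named genes were the 10 largest rises and falls without clone or locus names, up to 4 called genes per direction and list, up to 8 per direction of the reversed and after-the-first-day classes, and a set of islet genes. Others named were picked after their values were seen. The 27 lists (658 genes, 581 on the array, 520 tested) and the comparisons were chosen with earlier results of these data known. Some listed genes are not reported here. Promoters are those of RefSeq for GRCm38.p6.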

Additional observations from a re-analysis of the deposited data

Results flagged for a closer look

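Within the 4 arrays of day 0, 2 of 74 named genes had 1 array far from the other 3 by Dixon's test, which flags about 1 in 20 groups by chance. Serpina1c stood at 9.62 on day 0 array 4 and at 10.73 to 10.91 on the others. Syne1 stood at 10.19 on day 0 array 3 and at 9.60 to 9.69 on the others. Groups of 2 and 3 arrays, day 4 and day 1 among them, were not tested in this way.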

How the results depend on the processing

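The 162 genes called between day 4 and day 1 became 14 with the 5 arrays alone, 2916 with array weights and 8 to 358 with single arrays left out. Between 155 and 172 were called under the 3 other normalizations, 121 without a filter and 211 with the background subtracted. Genes higher at day 4 made up 64.2% of the calls, 46.1% without day 1 array 1, 43.1% with array weights, 54.5% with the background subtracted, 74.6% with the progenitor arrays alone, 76.5% without the 2 arrays that stood apart, 81.3% without day 1 array 2, 78.4% without day 1 array 3, 75% without day 4 array 1 and 91.7% without day 4 array 2. With the replicate number as a block 23 were called. Deviations of arrays of the same number correlated at -0.165 and -0.143 between day 4 and day 1. The values were 0.152 and 0.101 between day 4 and day 0, and 0.295, -0.094 and -0.312 between day 1 and day 0. With 2 arrays at day 4 the deviations there mirror each other, so these values cannot decide whether the numbers mark a pairing. No label gives one, and the main fit uses none. In the first day 449 calls became 168 with the arrays compared alone, 1040 with array weights, 235 with the block, 261 without the 2 arrays that stood apart, an alternative chosen after seeing the data, and 202 to 467 with single arrays left out. The 103 genes whose later and first-day changes differed became 64 without a filter, 52 with the arrays compared or the progenitor arrays alone, 1350 with weights, 19 with the block, 49 without the 2 arrays and 17 to 176 with single arrays left out. The 15 reversed genes became 23 with the background subtracted, 0 with the arrays compared alone, 319 with weights, 3 with the block and 0 to 63 with single arrays left out. The 32 that changed after the first day became 15 without a filter, 3 with the arrays compared alone, 5 with the progenitor arrays alone, 767 with weights, 2 with the block, 17 without the 2 arrays and 1 to 59 with single arrays left out. The 15 continued genes became 1, 9, 128, 7 and 5 with the arrays compared, the progenitor arrays, weights, the block and the 2 arrays out, and 1 to 16 with single arrays left out. For the 74 named genes under 22 alternatives, 1299 results kept their direction and their side of the threshold, 315 lost the call, 14 gained it and 0 reversed. The called genes have groups that do not overlap, so leaving out an array could not turn them. The cause of these changes was not tested, beyond the fewer arrays that some fits hold.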
